A study of Homo sapiens with 6 samples.

Results

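Ribosome biogenesis factors are the nucleolar proteins that make, cut, modify and fold ribosomal RNA and assemble it with ribosomal proteins. A fixed list of 56 such genes was followed, taken by gene symbol. Of them 48 had a probe set that names 1 gene only, out of 17687 genes with such a probe set. WDR43, WDR46, BOP1, PPAN, GNL3, EBNA1BP2, NOP56 and DKC1 are the 8 listed genes without one and were not analysed here. The measured factors were sorted by textbook role into 26 small subunit factors, 12 large subunit factors, 5 small nucleolar ribonucleoprotein (snoRNP) factors and 5 other nucleolar factors.

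They were measured on 6 arrays from 3 established non-small cell lung cancer lines. The lines PC-9 and HCC827 have mutant EGFR (the receptor tyrosine kinase for epidermal growth factor, EGF), while EGFR is wild-type in H322. For PC-9 and for HCC827 a control culture stands beside one given 0.01 µM erlotinib, an inhibitor of the EGFR kinase, for 6 hours. For H322 the control stands beside a culture given EGF for 6 hours, at a labelled concentration of 100 µg/ml. The labels name tumour necrosis factor alpha as part of the culture medium without saying whether the controls had it too, and if they did not, its effect and the agents' effects cannot be told apart. There is 1 array for each line and condition, so the 2 mutant lines serve as the replicates for erlotinib, and the EGF pair has none.

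Ribosome production starts in the nucleolus, where RNA polymerase I transcribes a long precursor that holds the 18S, 5.8S and 28S ribosomal RNAs. The small subunit processome, built around the U3 snoRNP, folds and cuts the 18S part, and a separate set of factors matures the large subunit. Box C/D snoRNPs methylate the RNA and box H/ACA snoRNPs convert uridines to pseudouridine. In growing cells the genes for these factors are known as targets of the transcription factor MYC, and growth factor signalling through ERK and mTOR is known to raise ribosome production.

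Signals are given as log2(intensity + 1), called the log2 level below, and each change is the treated minus the control array of the same line. Levels are compared between arrays for 1 gene and never between genes. A signal counts as dim when it does not exceed the signal that 95% of the 612 negative control probe sets on its array stay under, a limit that lay between 6.92 and 7.47. Of the 48 factors 42 were above that limit on all 6 arrays, RRP12 was dim on all of them, and RRP9, RCL1, NOC3L, RRS1 and NOL6 were dim on some. All 6 epithelial markers examined (KRT8, KRT18, KRT19, EPCAM, CDH1 and CDH3) were above the limit on every array. None of 5 leukocyte and 4 fibroblast or endothelial markers was above it on more than 1 array.

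Erlotinib was followed by lower signals of most ribosome biogenesis factors in both EGFR-mutant lines. The signal was lower in both lines for 44 of the 48 factors, against 29.6% of all genes, and the median change was -0.60 in PC-9 and -0.90 in HCC827, against 0.01 and 0.00 over all genes. By role, the median of the mean change of the 2 lines was -0.70 for small subunit factors, -0.81 for large subunit factors, -0.71 for snoRNP factors and -0.59 for the other nucleolar factors. At least 1.5-fold lower signals in both lines were seen for 19 factors, against 1.85% of all genes, with each dim array of a pair set to its limit. Among those above the limit on all 6 arrays, 18 of 42 factors had such signals, against 267 of 7405 genes. A smaller share of cells with the RNA and less RNA per cell cannot be told apart in such bulk samples. In the test of each gene 8 factors fell and 0 rose: LYAR, NOL6, NOP16, NOP58, GRWD1, NOLC1, BRIX1 and NIP7.

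Each gene was tested with limma, with a term for the cell line, and called at a Benjamini-Hochberg adjusted p under 0.05 among the 17687 genes. Only the 2 lines are replicates, and the SE that follows each ± is drawn mostly from the spread of other genes. The fit called 1.48% of all genes, 0.916% as fallen and 0.565% as risen. Of the 40 factors that did not pass, 31 had an unadjusted p under 0.05 and 9 an adjusted p between 0.05 and 0.1 in limma. With those that passed, 39 of the 48 factors had an unadjusted p under 0.05 in limma, against 2540 of the 17687 genes. The calls depend on how the spread is modelled: 0 factors passed when the spread was not allowed to follow the level, 0 passed without the cell line block, and between 4 and 31 passed under the other alternatives. The changes themselves come from the arrays and not from that model.

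**Figure D1:**
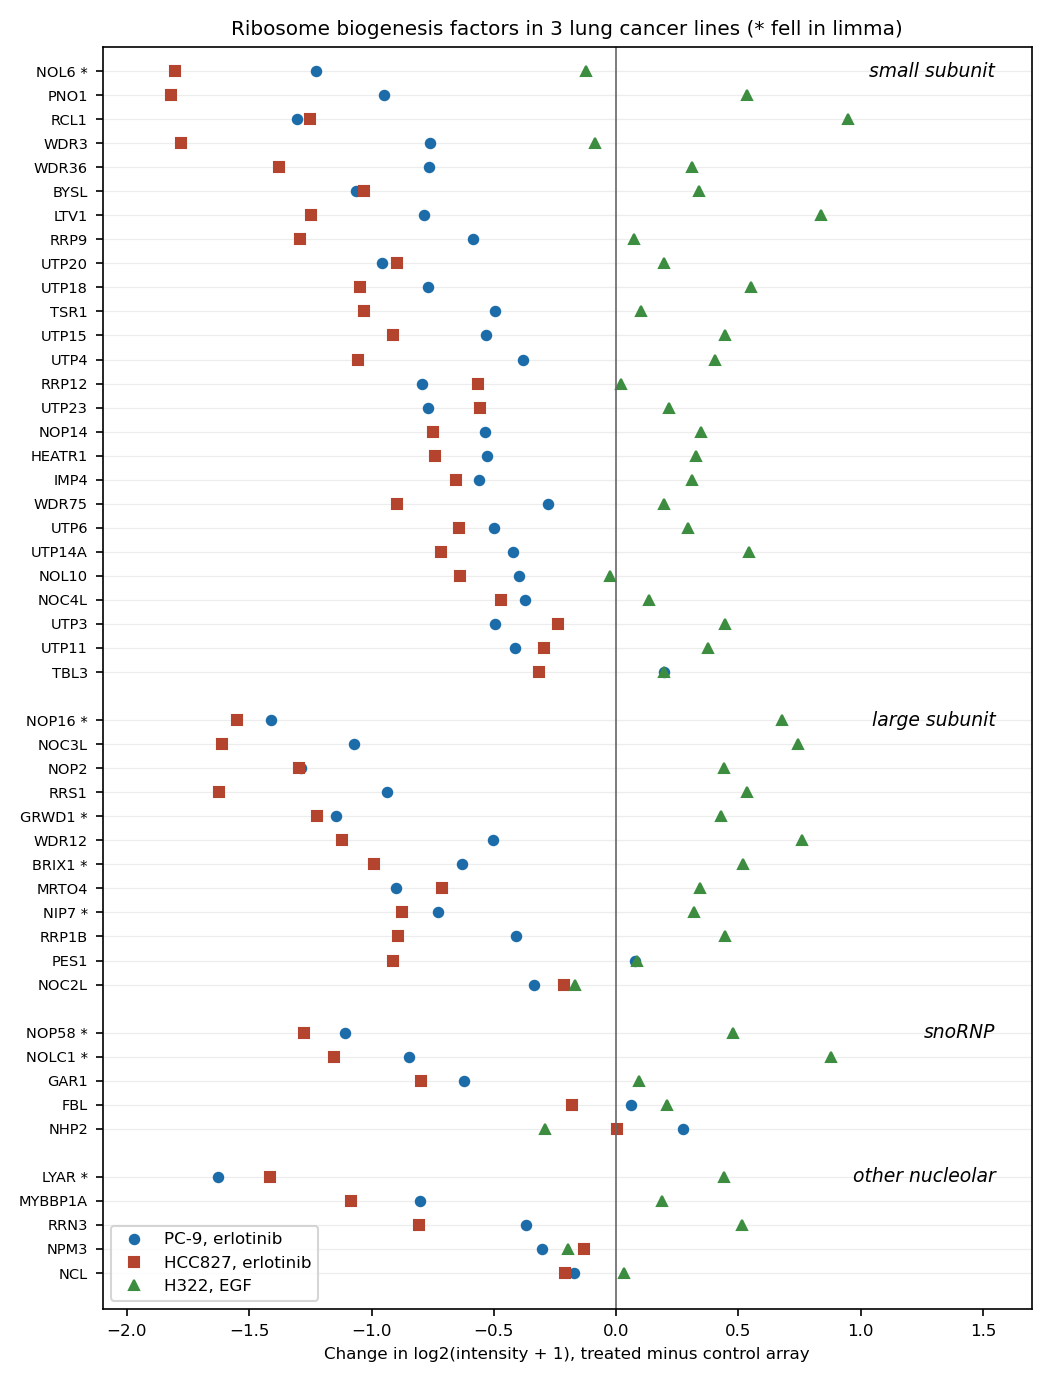
Change of each of the 48 measured factors on the log2 scale (x axis), grouped by role and ordered by the mean erlotinib change. Circles are PC-9 and squares HCC827, erlotinib minus control, triangles are H322, EGF minus control, each from 1 pair of arrays, and a star marks the 8 factors that fell in limma. The circles and squares lie left of 0 for 44 factors and the triangles right of 0 for 42.

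Among the small subunit factors 1 of 26 fell, and 25 had a lower signal in both lines. NOL6, a scaffold protein of the processome known as UTP22 in yeast, had log2 levels of 7.58 on the PC-9 control array and 6.36 with erlotinib, and 11.38 on the HCC827 control array and 9.58 with erlotinib. It fell by 1.52 ± 0.25 in log2 units (SE from limma, n = 2 lines, limma adjusted p = 0.0395). The HCC827 signal was 3.50-fold lower, while the PC-9 erlotinib array was dim and the PC-9 control only just above the limit, so the PC-9 decrease is given as at least 1.17-fold. PNO1, an RNA-binding protein of the small subunit platform that helps release the finished 18S RNA, had 9.72 on the PC-9 control array and 8.77 with erlotinib, and 10.69 on the HCC827 control array and 8.87 with erlotinib. Its mean change was -1.38 ± 0.26 and did not pass (limma adjusted p = 0.0510), with a decrease of 3.53-fold in HCC827 against 1.93-fold in PC-9. In every one of these pairs the erlotinib array was the lower of the line.

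The UTP-B module, a building block of the processome, was represented by 5 of the measured factors. WDR3 had log2 levels of 10.18 on the PC-9 control array and 9.42 with erlotinib, and 12.01 on the HCC827 control array and 10.23 with erlotinib. WDR36 had 10.03 on the PC-9 control array and 9.26 with erlotinib, and 11.68 on the HCC827 control array and 10.30 with erlotinib. These 2 WD-repeat subunits had mean changes of -1.27 ± 0.26 and -1.07 ± 0.22 and did not pass (limma adjusted p = 0.0649 and 0.0626). For WDR3 the line values stood apart, at -0.76 in PC-9 and -1.78 in HCC827. UTP18 had -0.91 and UTP6 -0.57 as mean changes, while TBL3 did not move in a common direction, with 0.20 in PC-9 and -0.31 in HCC827.

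The t-UTP subunits, which bind the nascent transcript first and are known to link its synthesis with its processing, had similar changes among themselves. HEATR1, UTP4, UTP15 and WDR75 had mean changes of -0.63, -0.72, -0.72 and -0.59, and each was at least 1.5-fold lower in HCC827 while none was in PC-9. Among factors of late small subunit maturation BYSL had -1.05, LTV1 -1.02 and the GTPase-like TSR1 -0.76. BYSL was close between the lines, with 2.04-fold in HCC827 and 2.09-fold for PC-9. RCL1, which takes part in the cleavage that frees the 18S precursor, had a mean change of -1.28, with a decrease of 2.38-fold in HCC827 and, since the erlotinib array was dim, at least 1.32-fold for PC-9. None of these passed (limma adjusted p from 0.0564 for RCL1 to 0.195 for WDR75).

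The mean changes of the other small subunit factors were all below 0. UTP20, a long scaffold protein, had a mean change of -0.93 and UTP23 one of -0.66. NOP14 had -0.64 and IMP4, a U3 snoRNP protein, -0.61. UTP14A, an activator of a processome helicase, had -0.57, NOL10 -0.52, NOC4L -0.42, UTP3 -0.37 and UTP11 -0.35. UTP14A has a near-identical retrocopy, UTP14C, so its signal is uncertain. RRP9, the U3-specific WD-repeat protein, was dim on both PC-9 arrays and on the HCC827 erlotinib array, at least 2.26-fold lower in HCC827, and RRP12 was dim throughout, so no fold is given for it. Over the 25 small subunit factors that did not pass the mean changes ranged from -1.38 to -0.06, and 22 had an unadjusted p under 0.05 in limma.

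Of the 12 large subunit factors 4 fell, and 11 had a lower signal in both lines. NOP16, a protein of early large subunit particles, had log2 levels of 10.83 on the PC-9 control array and 9.42 with erlotinib, and 12.80 on the HCC827 control array and 11.25 with erlotinib. It fell by 1.48 ± 0.17 in log2 units, which is 2.79-fold (limma adjusted p = 0.0163), and both erlotinib arrays lay well under their controls. GRWD1, known as a chaperone of the ribosomal protein RPL3 and of histones, had 11.74 on the PC-9 control array and 10.60 with erlotinib, and 12.40 on the HCC827 control array and 11.18 with erlotinib. The lines were close, with decreases of 2.34-fold in HCC827 and 2.21-fold for PC-9, and it fell by 1.18 ± 0.16 in log2 units (limma adjusted p = 0.0232).

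BRIX1, an assembly factor that binds the large subunit precursor early, had log2 levels of 13.18 on the PC-9 control array and 12.55 with erlotinib, and 14.10 on the HCC827 control array and 13.11 with erlotinib. NIP7, which acts in the processing of the large subunit precursor, had 11.90 on the PC-9 control array and 11.17 with erlotinib, and 14.05 on the HCC827 control array and 13.17 with erlotinib. They fell by 0.81 ± 0.15 and 0.80 ± 0.14 in log2 units, the smallest decreases among the factors that passed (limma adjusted p = 0.0479 and 0.0475). These adjusted p-values lie close to the threshold. NOP2, the methyltransferase that modifies a cytosine of 28S RNA, had 8.70 on the PC-9 control array and 7.42 with erlotinib, and 9.09 on the HCC827 control array and 7.79 with erlotinib. The decreases in the lines were nearly equal, 2.44-fold and 2.46-fold, with a mean change of -1.29 ± 0.24, and missed the threshold (limma adjusted p = 0.0503).

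NOC3L and RRS1, both factors of large subunit assembly, had mean changes of -1.34 ± 0.26 and -1.28 ± 0.26 without passing (limma adjusted p = 0.0596 and 0.0635), with the PC-9 erlotinib array dim for each. In HCC827, where every signal was measured, they were 3.05-fold and 3.08-fold lower. The PeBoW complex of PES1, BOP1 and WDR12, needed for cleavage in the internal spacer, had 2 measured subunits. WDR12 had -0.51 in PC-9 and -1.12 in HCC827. PES1 had 0.08 and -0.91, so its PC-9 signal did not go down with that of its partner. MRTO4, RRP1B and NOC2L had mean changes of -0.81, -0.65 and -0.27. NOC2L, also known as a repressor of p53 targets, had the change nearest to 0 among the large subunit factors.

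Of the 5 snoRNP factors 2 fell. NOP58, a core protein of box C/D particles, had log2 levels of 10.94 on the PC-9 control array and 9.83 with erlotinib, and 13.58 on the HCC827 control array and 12.31 with erlotinib. It fell by 1.19 ± 0.16 in log2 units, which is 2.28-fold (limma adjusted p = 0.0224). NOLC1, a phosphoprotein that accompanies snoRNPs through the nucleolus and Cajal bodies, had 11.30 on the PC-9 control array and 10.45 with erlotinib, and 13.49 on the HCC827 control array and 12.34 with erlotinib. It fell (limma adjusted p = 0.0384), with changes of -0.85 in PC-9 and -1.15 in HCC827 and an SE of 0.16 for their mean. The erlotinib arrays of NOP58 and NOLC1 were the lower ones in each line, though the HCC827 erlotinib arrays stayed above the PC-9 controls.

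The enzymes and core proteins of these particles had unlike values. FBL, the methyltransferase that works beside NOP58 in box C/D particles, had 13.63 on the PC-9 control array and 13.69 with erlotinib, and 13.48 on the HCC827 control array and 13.29 with erlotinib, a mean change of -0.06 ± 0.13 (limma adjusted p = 0.896). In the box H/ACA particles GAR1 had 10.97 on the PC-9 control array and 10.35 with erlotinib, and 12.25 on the HCC827 control array and 11.46 with erlotinib, a mean change of -0.71 ± 0.17 (limma adjusted p = 0.102), while its partner NHP2 had 0.27 in PC-9 and 0.00 in HCC827. NHP2 was the only one of the 48 factors without a lower signal in either line. The differences between FBL and NOP58 and between GAR1 and NHP2 were not tested.

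Of the other nucleolar factors LYAR fell, with the lowest mean change among the 42 factors above the limit on all 6 arrays. This zinc finger protein of the nucleolus, known to promote ribosomal RNA synthesis and processing, had 9.25 on the PC-9 control array and 7.62 with erlotinib, and 11.95 on the HCC827 control array and 10.53 with erlotinib. It fell by 1.52 ± 0.20 in log2 units, which is 2.87-fold (limma adjusted p = 0.0201), with decreases of 2.67-fold in HCC827 and 3.09-fold for PC-9. MYBBP1A, a large nucleolar protein that binds MYB, had 8.25 on the PC-9 control array and 7.45 with erlotinib, and 9.997 on the HCC827 control array and 8.91 with erlotinib. RRN3, the factor that brings RNA polymerase I to its promoter and a known target of growth factor signalling at the protein level, had 11.21 on the PC-9 control array and 10.84 with erlotinib, and 11.18 on the HCC827 control array and 10.37 with erlotinib. Their mean changes of -0.94 ± 0.23 and -0.59 ± 0.19 did not pass (limma adjusted p = 0.112 and 0.213), and RRN3 has pseudogenes close to it in sequence, so its signal is uncertain. NCL (nucleolin), an RNA-binding protein of the nucleolus, and NPM3, of the nucleoplasmin family of histone chaperones, stood nearer to 0, with mean changes of -0.19 and -0.22.

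**Figure D2:**
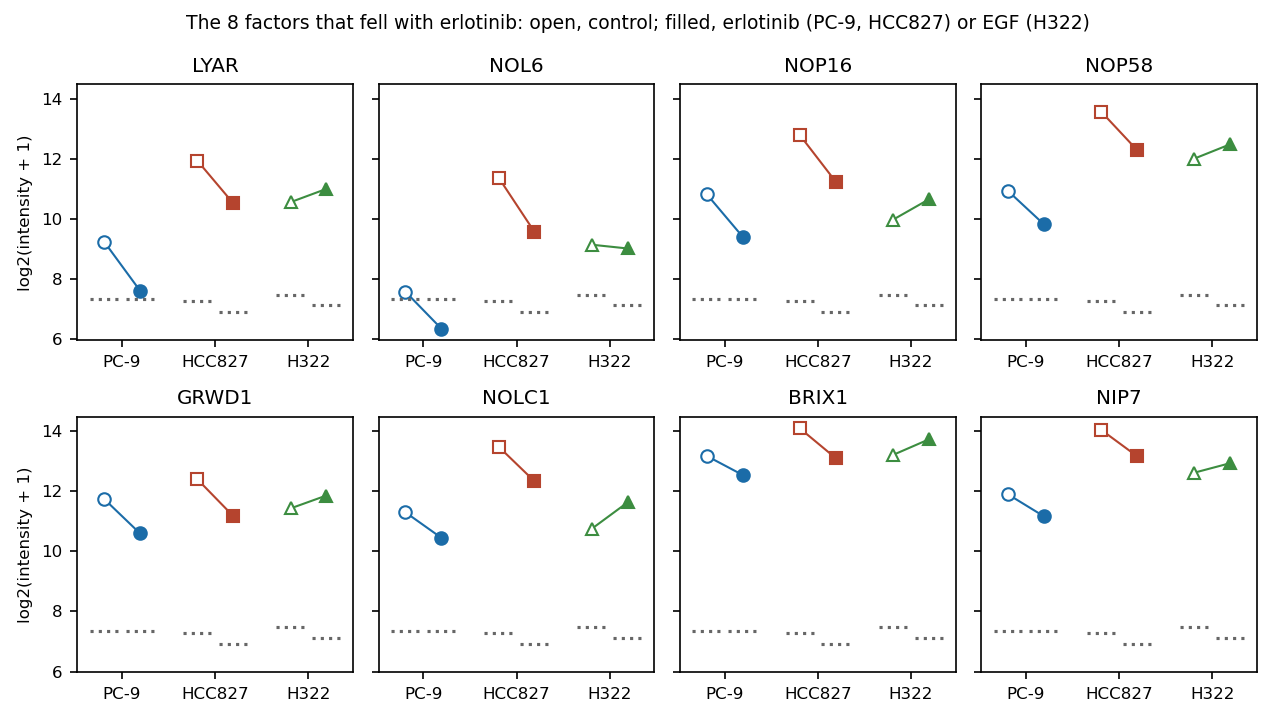
Log2 levels on all 6 arrays (y axis) of the 8 factors that fell with erlotinib in limma, 1 panel a gene, with control arrays open and treated arrays filled, 1 array per point. Dotted lines are the limit set by the negative controls on each array. Every erlotinib array lies below the control of its line, only the PC-9 erlotinib array of NOL6 is dim, and with EGF 7 of the 8 are higher.

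The decrease was larger in HCC827 than in PC-9 for 37 of the 48 factors, against 49.3% of all genes. With dim arrays set to the limit, at least 1.5-fold lower signals were seen for 37 factors in HCC827, against 5.0% of all genes, and for 20 in PC-9, against 4.27%. At least 2-fold lower signals were seen for 21 in HCC827, against 1.72%, and for 6 in PC-9, against 1.5%. Setting dim arrays to the limit lowered only the PC-9 counts of factors. Without it they were 23 at 1.5-fold and 9 at 2-fold, against 834 and 311 of the 17687 genes. Of the 42 factors above the limit on all 6 arrays, 32 were at least 1.5-fold lower in HCC827 and 19 in PC-9. The counts among the 7405 such genes were 624 and 545. With 1 array per condition in a line this difference between the lines was not tested. Across the 48 factors the changes of the lines went together (Pearson's r = 0.72). Over all genes r was 0.38, and over the 7405 genes above the negative controls on all 6 arrays it was 0.59. These are descriptions over genes that share the same 4 arrays. MYC itself had 12.73 on the PC-9 control array and 10.42 with erlotinib, and 13.90 on the HCC827 control array and 13.33 with erlotinib. Its signal was lower by 1.48-fold in HCC827 and by 4.95-fold in PC-9 (mean change -1.43 ± 0.35, limma adjusted p = 0.104, not passed), so the line with the larger decrease of MYC was the one with the smaller median decrease of the factors. A part of MYC in the changes of the factors was not tested.

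The promoters of the factors were searched for the E-box CACGTG, the palindrome that MYC and related factors are known to bind, which reads the same on both strands. Promoters from 250 bases before to 50 bases after the start site came from RefSeq (GRCh38.p14) and were matched by symbol for 41 of the 48 measured factors. The E-box was in 18 of these 41 promoters (43.9%), against 8.69% of the promoters of 14250 measured genes and 10.8% of those of the 6272 genes above the negative controls on all 6 arrays. It was in 12 of 23 promoters of small subunit factors, 4 of 10 of large subunit factors, 1 of 3 of snoRNP factors and 1 of 5 of the others. The copies also lay close to the start: 14 of 20 copies (70.0%) in the factors' promoters began within the first transcribed bases, against 134 of 1403 copies (9.55%) in those of all measured genes. A match is a description of the letters and not a site shown to be bound.

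The promoter of NOL6 is shown because it is the one promoter with an E-box among the 6 matched promoters of factors that fell. It lies at chr9:33473875-33474174 on the minus strand of GRCh38.p14, is written 5′ to 3′ with the E-box in capitals, and has the first base of the E-box at position 14, counted from 1 at the start site.
NOL6: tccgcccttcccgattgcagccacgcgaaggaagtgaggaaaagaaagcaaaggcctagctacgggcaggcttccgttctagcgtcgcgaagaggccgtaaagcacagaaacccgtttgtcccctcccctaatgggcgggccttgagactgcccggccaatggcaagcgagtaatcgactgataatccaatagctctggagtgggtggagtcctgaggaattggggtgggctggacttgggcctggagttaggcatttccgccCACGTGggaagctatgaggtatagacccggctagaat
Windows of 10 bases on each side of the E-box are shown for 8 other factors, chosen after their values were seen; in NOP2 the promoter table ends 9 bases after it. PNO1, NOC3L, NOP2, RCL1, BYSL and LTV1 are the other factors with an E-box and a mean erlotinib change at or below -1.02, and PES1 and FBL hold the same letters at a like place with changes nearer to 0.
PNO1 (chr2:68157887-68157912, plus strand): tgcagctgcgCACGTGtttcagccgg
NOC3L (chr10:94362905-94362930, minus strand): gggacttcggCACGTGtgtcattccc
NOP2 (chr12:6568242-6568266, minus strand): gtccggattgCACGTGgagggccgc
RCL1 (chr9:4792938-4792963, plus strand): tgttccaaacCACGTGgacgcgtctg
BYSL (chr6:41921517-41921542, plus strand): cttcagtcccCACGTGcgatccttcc
LTV1 (chr6:143843356-143843381, plus strand): cctggggctgCACGTGtggtgaggcc
PES1 (chr22:30591882-30591907, minus strand): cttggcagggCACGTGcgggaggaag
FBL (chr19:39846358-39846383, minus strand): cgctcttttcCACGTGcgaaagcccc
The first base of the E-box was at position 10 in PNO1, 20 in NOC3L, 36 in NOP2, 5 in RCL1, 29 in BYSL, 29 in LTV1, 14 in PES1 and 7 in FBL. The flanking letters differ between the genes. The median mean erlotinib change was -0.93 over the 18 factors with the E-box and -0.63 over the 23 without it, and the ranges overlap widely, from -1.52 to -0.06 and from -1.52 to 0.14. LYAR, NOP16, GRWD1, BRIX1 and NIP7 fell and have no CACGTG in this window.

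The rest of the pathway was read from 4 further lists. Of 49 other assembly factors 5 fell and 0 rose, against 0.916% and 0.565% of all genes. A lower signal in both lines was seen for 38, against 29.6% of all genes, and the median mean change was -0.44. DDX21, a nucleolar RNA helicase, fell by 1.74 ± 0.16 (limma adjusted p = 0.00875). PAK1IP1, RRP15 and RPF2, which act on the large subunit precursor, fell by 1.35, 1.13 and 0.99, and DCAF13, a small subunit factor, by 0.83 (limma adjusted p from 0.0357 to 0.0479). The list of RNA polymerase I held 13 genes, for its subunits, its initiation factors and its termination factor. Of these 2 fell, 0 rose and 9 had a lower signal in both lines, against the same shares of all genes. POLR1A, the largest subunit, fell by 0.97 ± 0.17 (limma adjusted p = 0.0452). POLR1B, the second largest, fell by 1.49 ± 0.27 (limma adjusted p = 0.0490) with 3 of its 4 arrays dim. The median of that list was -0.33.

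The RNA exosome, which trims the 5.8S precursor, and the ribosomal proteins themselves had medians nearer to 0. In the exosome list 0 of 11 measured genes passed in limma, against 1.48% of all genes. In so short a list a count of 0 is close to that share. An unadjusted p under 0.05 in limma was seen for 3, against 2540 of the 17687 genes. The signal was lower in both lines for 6, against 29.6% of all genes, and higher in both for 2, against 30.0%. The median mean change was -0.21. Of the 78 ribosomal protein genes listed 45 had a probe set that names 1 gene only. Of these 0 passed in limma, again close to the share of all genes, and 1 had an unadjusted p under 0.05. Their changes were small and mostly upward, with 27 of 45 higher in both lines, against 30.0% of all genes, and 2 lower in both. Their mean changes lay between -0.09 and 0.22, with a median of 0.10. Ribosomal protein genes have many processed pseudogenes close to them in sequence, so their signals are uncertain. Their signals were also bright, and whether the arrays follow changes in full at such levels was not tested. No test compared these lists.

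**Figure D3:**
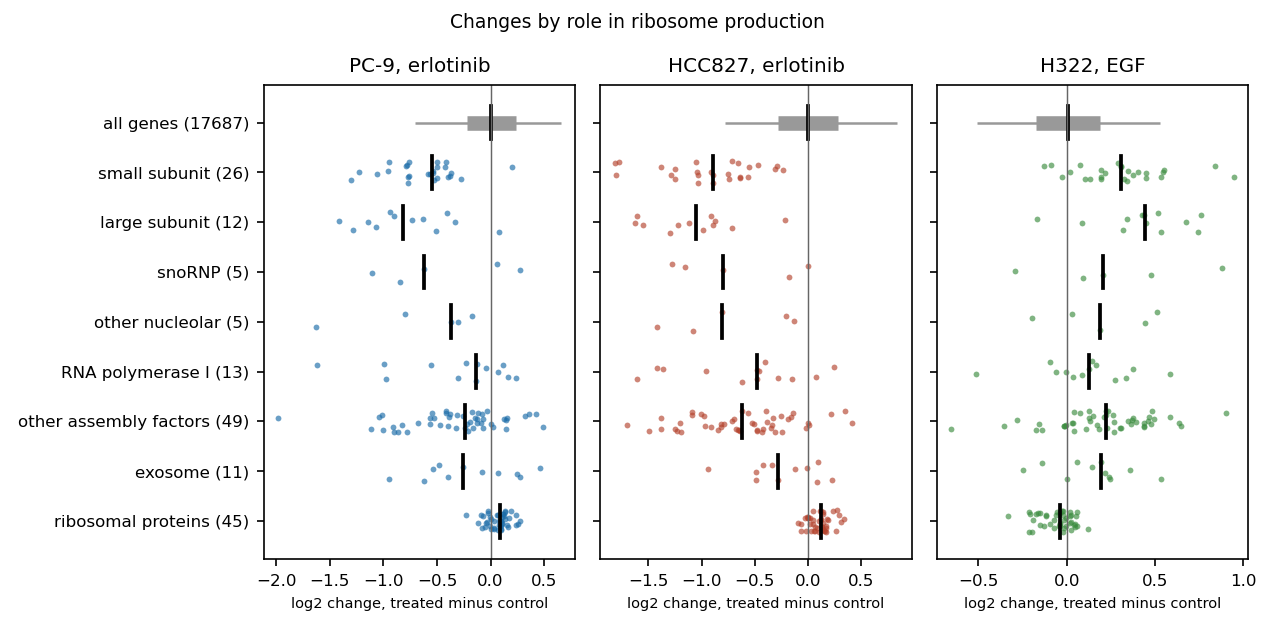
Log2 change of each gene (x axis, treated minus control, 1 pair of arrays a panel) in the role groups of the factors and in the 4 further lists, with the number of measured genes in brackets. Black bars are medians, and for all genes the thick grey bar covers the quartiles and the thin line the 5th to 95th percentiles. The medians of the 4 role groups lie left of 0 in both erlotinib panels and right of 0 with EGF. Single factors lie on the other side, and the ribosomal proteins stay near 0 in all 3 panels.

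In H322 most of the factors had a higher signal after EGF. The signal was higher with EGF for 42 of the 48 factors, against 51.1% of all genes, with a median change of 0.33 against 0.01 over all genes. The medians were 0.31 for small subunit factors, 0.44 for large subunit factors, 0.21 for snoRNP factors and 0.19 for the other nucleolar factors. The log2 difference was at or past 1.5-fold upward for 6 factors, against 1.15% of all genes, and for 5 factors, against 0.825%, when a dim control was set to its limit. It was at or past 2-fold upward for 0 factors, against 0.107%. Downward it was at or past 1.5-fold for 0 factors, against 149 of the 17687 genes. Among those above the limit on all 6 arrays, 4 of 42 factors were at or past 1.5-fold upward, against 104 of 7405 genes. With 1 array per condition there is no test and no replicate check of any of these values.

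These 6 factors follow. NOLC1 had log2 levels of 10.75 on the H322 control array and 11.63 with EGF, 1.84-fold higher. LTV1, a late small subunit factor, had 10.30 on the H322 control array and 11.14 with EGF, 1.79-fold higher. RCL1 had 7.33 on the H322 control array and 8.28 with EGF, where the control was dim and the increase is at least 1.75-fold, so its place among the others is not settled. The other members of the 6 were large subunit factors. WDR12 had 8.31 on the H322 control array and 9.07 with EGF, 1.69-fold higher. NOC3L had 7.19 on the H322 control array and 7.93 with EGF, at least 1.38-fold higher with a dim control. NOP16 had 9.98 on the H322 control array and 10.66 with EGF, 1.60-fold higher.

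Of the 8 factors that fell with erlotinib 7 were higher with EGF. The changes with EGF were 0.88 for NOLC1, 0.68 for NOP16, 0.52 for BRIX1, 0.48 for NOP58, 0.44 for LYAR, 0.43 for GRWD1 and 0.32 for NIP7. NOL6, with 9.15 on the H322 control array and 9.02 with EGF, was the exception. WDR3 was another factor with a large mean erlotinib change and no higher signal with EGF, at -0.09. In the other direction UTP3 and UTP11 had mean erlotinib changes of -0.37 and -0.35 and changes with EGF of 0.45 and 0.37. RRN3 had 0.51 with EGF. NHP2, NPM3, NOC2L and NOL10 completed the 6 factors without a higher signal, at -0.29, -0.20, -0.17 and -0.02.

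A lower signal in both erlotinib pairs together with a higher one in the EGF pair was seen for 39 of the 48 factors, against 18.3% of all genes. The comparisons share no array. Across the 48 factors the mean erlotinib change and the EGF change had a Pearson's r of -0.48. Over all genes r was -0.22, and over the 7405 genes above the negative controls on all 6 arrays it was -0.42. These values are across genes, which are not independent replicates. MYC had 12.06 on the H322 control array and 12.87 with EGF, 1.76-fold higher. The ribosomal proteins had a median change of -0.04 with EGF and the other assembly factors 0.22.

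**Figure D4:**
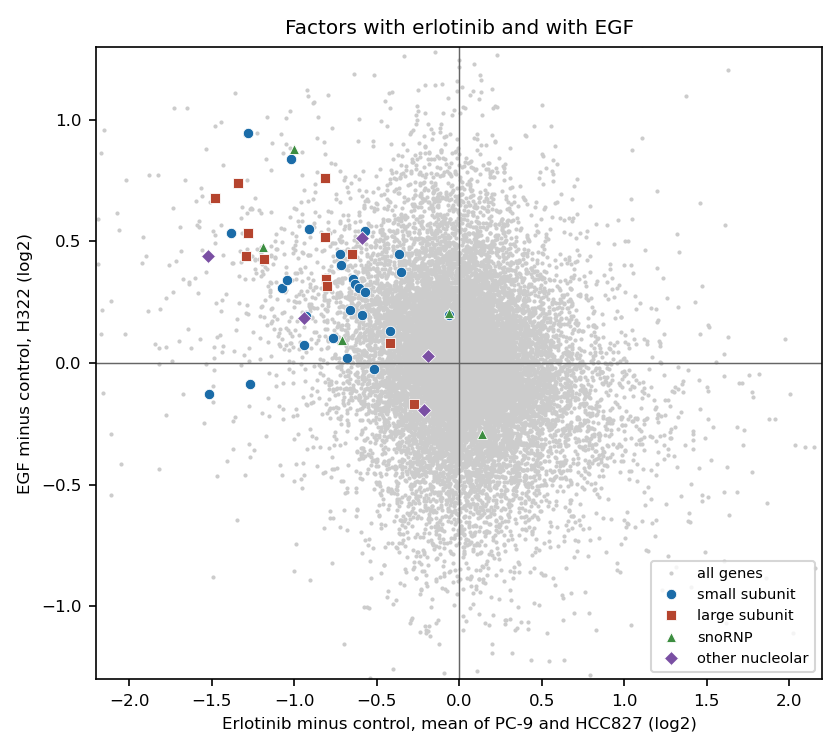
Mean erlotinib change of PC-9 and HCC827 (x axis) against the EGF change of H322 (y axis), both in log2, with all genes in grey and the 48 factors coloured by role. Axes are cut and leave out 43 genes, none of them a factor. Most factors lie in the upper left, lower with erlotinib and higher with EGF, and NOL6, WDR3, NOL10, NOC2L and NPM3 lie in the lower left.

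The control arrays also differed between the lines. HCC827 had the highest control level of the 3 lines for 39 of the 48 factors, against 35.9% of all genes, and the median difference was 1.03 against PC-9. H322 minus HCC827 had a median difference of -1.17. PC-9 and H322 were near each other, with a median difference of 0.04 for H322 minus PC-9. The largest differences were those of NOL6, with 7.58 in PC-9, 11.38 in HCC827 and 9.15 in H322, and of RRS1, with 7.60, 11.01 and 8.54. NOP16 had 10.83, 12.80 and 9.98, the largest gap between HCC827 and H322. These are values of single arrays of different lines, with no test. MYC had the same order at the top, with 12.73, 13.90 and 12.06.

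HCC827 was not the highest for 9 factors. RRN3, UTP18, RRP12, UTP11, FBL and NHP2 were highest in PC-9, RRP12 with all arrays dim, and UTP23, UTP6 and NOL10 in H322. UTP11 stood out among them, with 11.43 in PC-9, 10.33 in HCC827 and 10.48 in H322. UTP14A was low in H322, at 8.998 against 10.70 in PC-9 and 10.88 in HCC827. After erlotinib NOP58 in HCC827 still had 12.31, above the 10.94 of the PC-9 control, and LYAR 10.53 against 9.25. GRWD1 was different, with 11.18 in HCC827 after erlotinib and 11.74 on the PC-9 control.

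**Figure D5:**
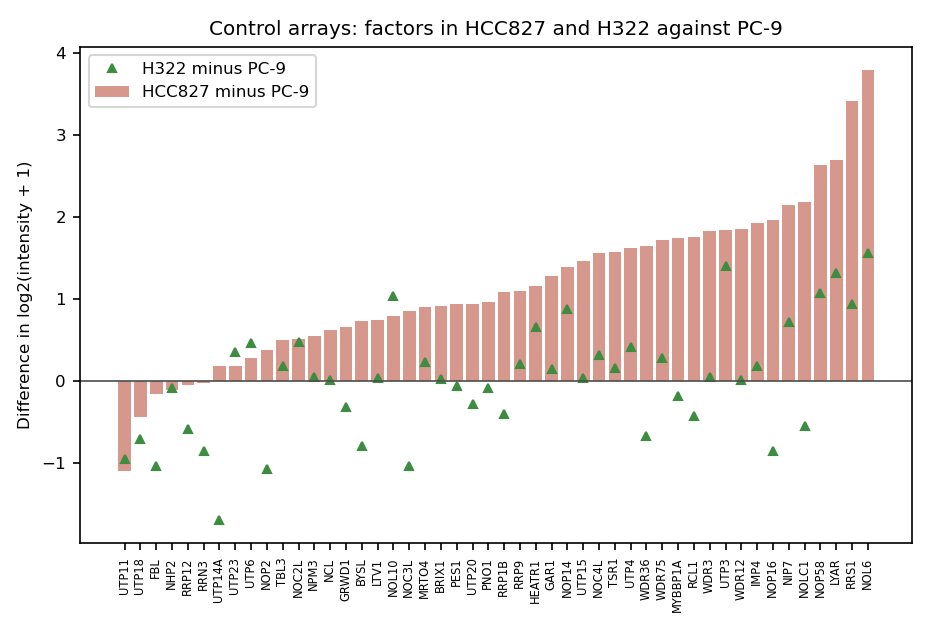
Difference of each factor's log2 level between control arrays (y axis), with bars for HCC827 minus PC-9 and triangles for H322 minus PC-9, ordered by the bars, 1 array a line. The bars are above 0 for 42 of the 48 factors and reach 3.80 for NOL6, while the triangles lie on both sides of 0.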

How the data were processed

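Biotin-labelled cRNA made from total RNA was hybridised to Clarion S arrays. The deposited file holds linear intensity values per probe set, for which the submitters' processing notes name Affymetrix Expression Console. How the authors corrected background, summarised probes and scaled arrays is not stated in the labels. The medians of the 6 arrays lay between 148 and 157, so a change shared by most genes would be hidden. Values were taken as log2(intensity + 1), which slightly understates changes of dim genes. Of 24351 probe sets 6642 did not carry exactly 1 gene symbol in the platform annotation and were left out. A probe set that names several genes was thus left out too, and genes found only on such probe sets count as not measured. For 20 genes with several probe sets, no factor among them, the brightest was kept.

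Erlotinib was tested two-sided with limma 3.58.1 in R 4.3.3 (lmFit, then eBayes with the spread following the level) on 4 arrays. The cell line was the block, since both arrays of a pair are the same line: their log2 levels correlated at 0.991 (PC-9) and 0.988 (HCC827), against 0.907 for the controls of these lines. Only 1 residual degree of freedom is left, and the model borrows 6.58 more from other genes. The labels do not say whether arrays come from separate cultures, so technical and biological spread cannot be told apart. The residual spread is how far the changes of the 2 lines differ, which holds differences between the lines as well. The p-values rest on it and, for the larger part, on the spread of other genes. EGF was not tested. Where 1 array of a pair is dim the fold is a bound against the limit of that array, and where both are dim none is given. The code was tested on simulated data. Precision is limited by the number of arrays.

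The factors and lists were chosen with earlier results of these data known. Values on every array are given for factors called in limma, the 3 largest mean erlotinib changes of each role group above the negative controls, the 5 largest EGF changes, factors with opposite signs in PC-9 and HCC827 and the largest differences between control arrays. Of other genes MYC and the called genes of the 4 further lists are named, at most 6 a list, and also PWP2 for the UTP-B module. Alternatives were another offset, 2 scalings, a filter on dim genes, raised dim signals, the mean of probe sets, no trend, no block and each line left out.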

Additional observations from a re-analysis of the deposited data

Results flagged for a closer look

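Of the 48 factors 3 had opposite signs of the erlotinib change in PC-9 and HCC827, and the difference was not tested, since each line has 1 array per condition. PES1 had 0.08 in PC-9 and -0.91 in HCC827, a difference of -0.99 (HCC827 minus PC-9), with levels of 10.62 on the PC-9 control array and 10.69 with erlotinib, and 11.55 on the HCC827 control array and 10.64 with erlotinib. TBL3 had 0.20 and -0.31, a difference of -0.51, with levels of 8.97 on the PC-9 control array and 9.17 with erlotinib, and 9.48 on the HCC827 control array and 9.16 with erlotinib. FBL had 0.06 and -0.18, a difference of -0.24.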

How the results depend on the processing

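The median erlotinib change of the factors stayed between -0.78 and -0.72 under the other scalings, offset, filter and probe set rules, and was -0.90 without PC-9 and -0.60 without HCC827. The median EGF change stayed between 0.31 and 0.34. Counts of calls moved more. limma called 166 genes and 5 factors with an offset of 16, 535 and 17 with each array centred, 794 and 24 after quantile normalization, 96 and 4 when genes dim on all 4 arrays were left out, and 1115 and 31 with dim values set to the limit. It called 1 gene and 0 factors with no trend of the spread, and 0 and 0 with no replicate block, against 262 and 8 as reported (2540 genes and 39 factors had an unadjusted p under 0.05). Among all genes 162 calls were lower and 100 higher, against 69 and 27 without the dim genes and 582 and 533 with dim values set to the limit. All calls of factors were lower. Each of the 8 factors that fell passed in 4 to 6 of the 8 alternative fits, 23 of the others passed in 1 to 3, and 17 in none. The mean erlotinib change of no factor turned its sign where both lines were kept, and without HCC827 those of FBL, PES1 and TBL3 did. Setting dim values to the limit, which differs between arrays, moved the median of all genes to -0.17 for erlotinib and -0.34 for EGF. Then 42 factors were lower in both lines and 40 higher with EGF, against 44 and 42 as reported and 44 and 41 with centred arrays. With EGF 0 factors were past 2-fold upward, and 5 in place of 6 were past 1.5-fold with dim values set to the limit. Leaving out a line leaves no test.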
